A study of Sus scrofa with 9 samples.

Results

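The DNA replication and nucleotide supply genes examined here were a list of 51 genes whose products license replication origins, unwind DNA, copy it, join the new strands, supply deoxynucleotides and reassemble chromatin behind the fork. Members were chosen by gene symbol and not by their measured values, although results of these data were known when the list was made. Of the 51 genes, 49 had a row among the 19535 gene rows of the count table, and all 49 passed the filter on low counts, as did 13662 genes in all. MCM5, a subunit of the replicative helicase, and TIMELESS, a fork protection factor, had no row of their own symbol and were not analysed here.

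The cells were primary porcine valvular interstitial cells (PVICs), the resident fibroblast-like cells of the heart valve, isolated from wild type aortic valve leaflets of pigs aged 4 to 5 months after the endothelial surface had been scraped off. The control group was kept in DMEM containing 10% fetal bovine serum, the OIM group in osteogenic induction medium supplemented with insulin, ascorbic acid (50 µg/mL) and sodium dihydrogen phosphate (2 mmol/L), and the bFGF group in the same OIM with 50 ng/mL basic fibroblast growth factor, in each case for 3 days per the labels. Each group had 3 libraries, and total gene counts ran from 57075793 to 67371523 in the control and OIM groups and from 46773376 to 48270827 in the bFGF group. Nothing states that the libraries of a group came from separate animals or cultures, so p-values measure the spread between these libraries, which may be technical. There was no group given bFGF without OIM.

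A eukaryotic cell licenses its replication origins in G1, when the origin recognition complex, CDC6 and CDT1 load the MCM hexamer onto DNA. In S phase CDC45 and GINS join the hexamer to form the active helicase, primase and the polymerases copy both strands, the PCNA clamp holds the polymerases on the template, and ribonucleotide reductase, thymidylate synthase and thymidine kinase supply the building blocks. Many of these genes are known targets of the E2F family and are transcribed mainly in cells that are about to enter S phase. Valve interstitial cells are largely quiescent in the healthy leaflet, and bFGF is a known mitogen for fibroblast-like cells.

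The messenger RNAs of this machinery rose together when bFGF was added to OIM. Of the 49 members, 47 rose in the bFGF group against the OIM group and none fell, with a median log2 fold change of 1.65, or 3.15-fold. Across all 13662 genes tested 17.7% were called higher and 18.5% lower in that comparison, and the median change of all genes was -0.00 on the log2 scale. A gene was called where the Benjamini-Hochberg adjusted p of edgeR's quasi-likelihood test was at most 0.05 and the log2 fold change was at least 0.5 in size. Every bFGF library lay above every OIM library in 49 of 49 members, against 36.3% of all genes. The members not called, RFC1 and RPA3, passed the adjusted p and missed the fold limit, with log2 fold changes of 0.33 and 0.38. Both were called when libraries were scaled by their totals alone, at 0.55 and 0.60, a scaling that shifted the median of all genes by 0.22 on the log2 scale and turned 2421 higher and 2525 lower calls over all genes into 3728 and 1694. No member had a negative fold change in this comparison, so the count of members lower at an unadjusted p under 0.05 was 0 by edgeR and 0 by DESeq2. In a bulk sample, more cells that are replicating and more of these RNAs in each cell cannot be told apart.

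Levels below are in CPM, counts per 1000000 gene counts of a library after scaling by the trimmed mean of M values (TMM). The 49 members together held 992 to 1009 CPM in the control libraries, 1049, 1329 and 1021 CPM in OIM replicates 1, 2 and 3, and 3181 to 3277 CPM in the bFGF libraries. As a share of the raw gene counts this was 0.0929% to 0.0964% in control, 0.0965% to 0.129% in OIM and 0.351% to 0.364% in bFGF. The bFGF libraries were alike, with a median coefficient of variation of 3.98% over the members, whereas it was 5.46% in control and 15.0% in OIM. The count of a single member in a single library ran from 52 reads for POLE2 in control replicate 1 to 14414 reads for RRM2 in bFGF replicate 3.

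**Figure D1:**
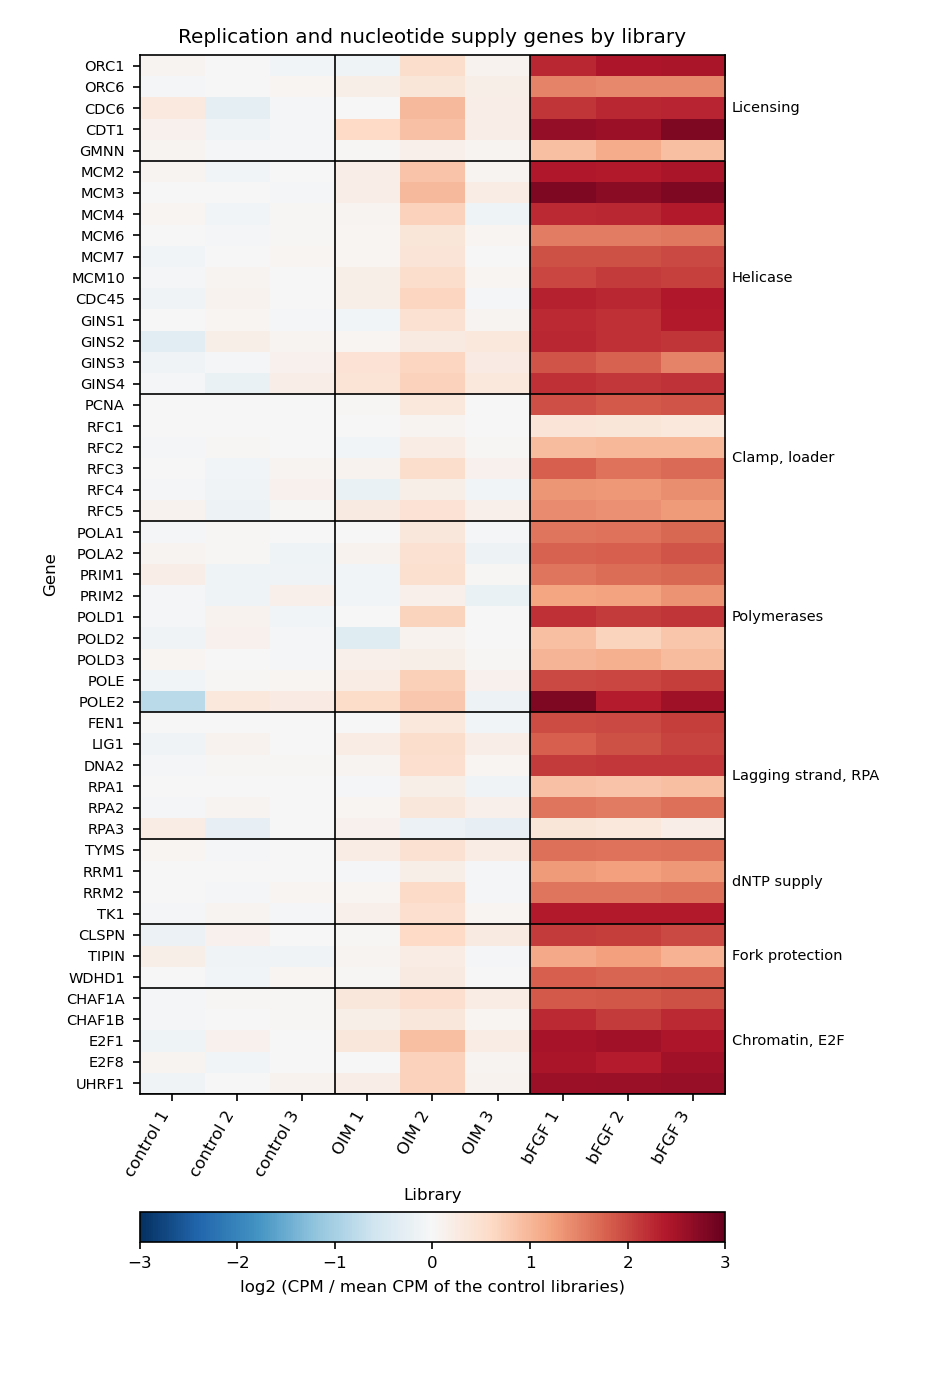
Expression of the 49 genes (rows, grouped by role) in the 9 libraries (columns), as the log2 ratio of each library's CPM to the mean of the control libraries. The bFGF columns are red in nearly every row, the control columns are near 0 apart from POLE2 in control replicate 1, and OIM replicate 2 is the warmest of the OIM columns, whereas RFC1 and RPA3 stay pale throughout.

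OIM replicate 2 stood apart from the other OIM libraries in these genes. It was the highest of the 6 control and OIM libraries in 45 of 49 members, against 19.5% of all genes tested. Its level over the mean of the other OIM libraries had a median log2 ratio of 0.35 over the members, from -0.11 for RPA3 to 0.87 for CDC6, and a median of -0.00 over all genes, which the scaling centres. The library also stood apart over genes at large, with a mean chi-square of its counts per gene of 19.3 against each of the other OIM libraries, beside 5.90 between those 2 libraries. Between control libraries this mean was 11.7 for replicates 1 and 2, 8.73 for replicates 2 and 3 and 5.68 for replicates 1 and 3. The measure was taken on raw counts and grows with depth, and OIM replicate 2 had the highest total of gene counts. OIM replicate 2 remained below every bFGF library in 49 of 49 members. Without it, 47 members were still called higher in bFGF against OIM, and the median log2 fold change over all 49 was 1.81.

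**Figure D2:**
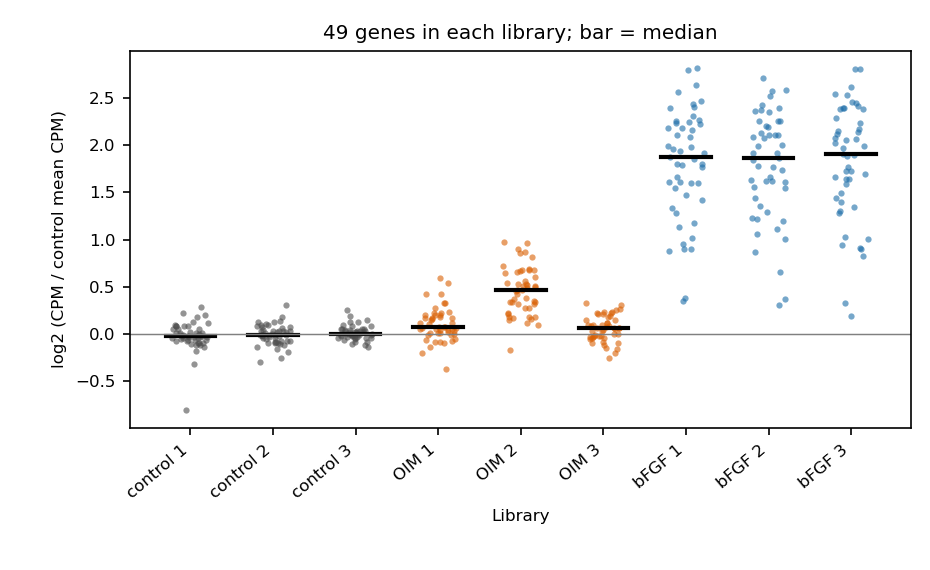
Each point is 1 of the 49 genes in 1 library, as the log2 ratio of its CPM to the control mean, and the black bar is the library's median. The medians correspond to 3.63-fold to 3.75-fold over the control mean in the bFGF libraries, to 1.38-fold in OIM replicate 2 and to 1.05-fold and 1.04-fold in OIM replicates 1 and 3.

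Because E2F factors are known to drive many of these genes, their promoters were read for E2F words. The window was 250 bases before and 50 after each annotated start in the Sscrofa11.1 genome (RefSeq), and the words were TTTCCCGC, TTTCGCGC, TTTGCCGC and TTTGGCGC on both strands, 2 of which can overlap on opposite strands. At least 1 word was present in 12 of the 50 members found in the annotation, or 24.0%, and in 669 of 20607 protein-coding promoters, or 3.25%. The 12 promoters were those of TIPIN, POLE2, CDT1, RPA2, TYMS, ORC1, MCM3, POLD3, CHAF1B, POLE, MCM6 and POLA1. The CCAAT box (CCAAT) was found in 54.0% of member promoters against 35.7% of all, and a cell cycle homology region word (TTTGAA or TTTAAA) in 20.0% against 23.8%. Among tested genes alone, the last share was 20.4% of members against 19.8%, the CCAAT share 55.1% against 35.6% and the E2F share 24.5% against 4.20%. A match in these windows is a description of letters and was not tested for binding. Among the members tested, the median log2 fold change of bFGF against OIM was 1.59 for the 12 with an E2F word, from 0.88 to 2.25, and 1.66 for the 37 without one, from 0.33 to 2.23, and the difference was not tested. The sequences below are the 250 bases that end at the base before the start, 5′ to 3′ on the gene's strand, with E2F words in capitals. They show MCM6, which had the most words, CDT1, the member called in OIM against control, and POLE, with a word on each strand, beside RFC1 and RPA3, the members that missed the fold limit and had no word. MCM6 lies at chr15:15923388-15923637 on the plus strand, CDT1 at chr6:897707-897956 on the minus strand, POLE at chr14:22797896-22798145 on the plus strand, RFC1 at chr8:30635933-30636182 on the minus strand and RPA3 at chr9:77914873-77915122 on the minus strand.
MCM6: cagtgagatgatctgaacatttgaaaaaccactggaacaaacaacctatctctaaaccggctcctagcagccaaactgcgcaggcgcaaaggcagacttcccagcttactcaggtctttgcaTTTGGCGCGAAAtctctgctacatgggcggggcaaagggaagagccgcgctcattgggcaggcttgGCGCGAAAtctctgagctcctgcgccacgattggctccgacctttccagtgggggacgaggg
CDT1: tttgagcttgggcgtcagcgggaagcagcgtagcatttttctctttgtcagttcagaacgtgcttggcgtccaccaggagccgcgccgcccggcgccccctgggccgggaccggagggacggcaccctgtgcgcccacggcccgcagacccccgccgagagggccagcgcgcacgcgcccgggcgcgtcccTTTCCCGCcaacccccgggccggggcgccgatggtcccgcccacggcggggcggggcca
POLE: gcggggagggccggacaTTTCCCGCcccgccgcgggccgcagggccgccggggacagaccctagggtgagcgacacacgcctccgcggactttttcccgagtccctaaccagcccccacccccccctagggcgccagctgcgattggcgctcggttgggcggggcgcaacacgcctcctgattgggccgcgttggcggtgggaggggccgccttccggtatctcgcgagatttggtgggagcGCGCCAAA
RFC1: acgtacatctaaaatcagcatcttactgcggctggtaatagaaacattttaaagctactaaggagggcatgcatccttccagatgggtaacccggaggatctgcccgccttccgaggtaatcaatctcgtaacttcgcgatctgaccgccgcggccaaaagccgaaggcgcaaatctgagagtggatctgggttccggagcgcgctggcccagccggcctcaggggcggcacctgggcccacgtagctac
RPA3: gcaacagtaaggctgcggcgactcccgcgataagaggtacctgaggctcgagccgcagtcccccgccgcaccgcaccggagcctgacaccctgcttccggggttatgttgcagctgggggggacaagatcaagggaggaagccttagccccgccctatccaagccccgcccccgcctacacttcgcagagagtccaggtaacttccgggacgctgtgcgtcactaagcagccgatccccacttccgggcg

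Origin licensing genes rose in the bFGF group, 5 of 5, with a median log2 fold change of 1.77 against OIM. ORC1, the origin recognition subunit whose level is known to follow the cell cycle, measured 8.81, 8.20 and 7.77 CPM in control, 7.53, 11.8 and 8.84 CPM in OIM and 39.7, 44.3 and 45.3 CPM in bFGF libraries. CDT1, the loader of the MCM hexamer, measured 4.33, 3.68 and 3.90 CPM in control, 6.01, 7.28 and 4.59 CPM in OIM and 24.8, 23.6 and 27.8 CPM in bFGF. GMNN encodes geminin, the inhibitor of CDT1, and measured 20.7, 18.9 and 19.0 CPM in control, 20.0, 21.8 and 20.7 CPM in OIM and 36.4, 42.3 and 36.8 CPM in bFGF. For all 3 genes the bFGF libraries lay above the other 6 with no overlap, and for CDT1 the OIM libraries also lay above control. Against OIM, ORC1 rose by 2.19 on the log2 scale (SE 0.128, edgeR adjusted p = 2.21e-09) and CDT1 by 2.09 (SE 0.125, edgeR adjusted p = 2.44e-12). GMNN rose by 0.88 (SE 0.0708, edgeR adjusted p = 4e-11), the smallest change of the licensing genes. The loader CDC6 rose by 1.77 and the origin subunit ORC6 by 1.21. ORC1 overlaps an antisense non-coding gene in the annotation, and whether the counting used strand is not given in the sources used here.

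The helicase genes showed the highest median among the enzymes of the fork, 1.97 on the log2 scale, and 11 of 11 rose against OIM. MCM3, a subunit of the hexamer, measured 18.2, 18.1 and 17.5 CPM in control, 20.6, 35.2 and 20.9 CPM in OIM and 124, 117 and 126 CPM in bFGF. It had the largest change of all members, a log2 fold change of 2.25 (SE 0.205, edgeR adjusted p = 5.65e-05), or 4.77-fold over OIM. GINS1, of the GINS tetramer that completes the helicase, measured 6.84, 7.26 and 6.73 CPM in control, 6.60, 9.56 and 7.37 CPM in OIM and 32.6, 31.8 and 36.2 CPM in bFGF, and rose by 2.09 (SE 0.104, edgeR adjusted p = 3.24e-14). GINS3, of the same tetramer, measured 3.45, 3.58 and 4.05 CPM in control, 4.96, 5.79 and 4.41 CPM in OIM and 13.6, 12.6 and 10.4 CPM in bFGF. It rose by 1.26 (SE 0.130, edgeR adjusted p = 3.9e-09), the smallest change of the helicase genes. In each of these genes OIM replicate 2 was the highest OIM library and still lay far below the bFGF libraries. Of the other hexamer subunits MCM4 rose by 2.03, MCM2 by 1.98, MCM7 by 1.78 and MCM6 by 1.39. The helicase partner CDC45 rose by 2.02, the activator MCM10 by 1.77, GINS2 by 1.97 and GINS4 by 1.67. MCM4, MCM7 and GINS2 overlap a gene on the opposite strand.

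Dividing by the length of all annotated exons allows a rough comparison of levels between genes, and on this scale the hexamer subunits, which assemble in equal numbers, differed. How isoform use, or reads of the genes that overlap MCM4 and MCM7 on the opposite strand, moved these ratios was not tested. In control, levels per kilobase were 4.51 ± 0.259 CPM/kb for MCM2, 4.72 ± 0.107 for MCM3, 7.41 ± 0.405 for MCM4, 15.2 ± 0.699 for MCM7 and 18.8 ± 0.402 for MCM6 (SD, n = 3). In bFGF they were 23.9 ± 0.57 CPM/kb for MCM2, 32.2 ± 1.23 for MCM3, 36.3 ± 2.20 for MCM4, 55.5 ± 0.982 for MCM6 and 58.1 ± 1.42 for MCM7 (SD, n = 3). MCM2 and MCM3 did not differ beyond their spread in control, and MCM6 and MCM7 lay within a few CPM/kb of each other in bFGF. Within a library the highest of the 5 subunits stood 3.94 to 4.32 times over the lowest in control, 2.95 to 4.12 times in OIM and 2.41 to 2.45 times in bFGF. MCM2, MCM3 and MCM4, with the lower levels in control, had larger changes than MCM6 and MCM7, although MCM4 rose by slightly more than MCM2. The ratio in the bFGF libraries lay below that of every other library, and it was not tested further.

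**Figure D3:**
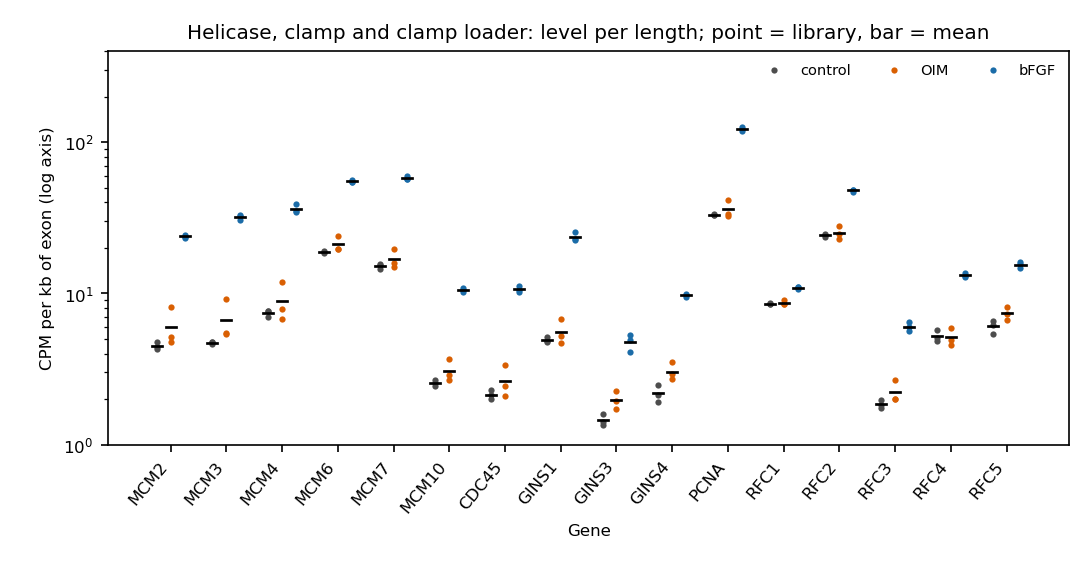
CPM per kilobase of exon on a log axis for helicase, clamp and clamp loader genes, each point 1 library and each bar a group mean. The bFGF points lie above the others for every gene, with RFC1 showing the smallest step, and the MCM subunits are closer together in bFGF than in control.

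The clamp PCNA rose strongly, whereas the subunits of the clamp loader changed by unequal amounts, with 5 of the 6 genes called and a median log2 fold change of 1.21. PCNA measured 38.0, 37.9 and 38.8 CPM in control, 38.9, 47.8 and 37.7 CPM in OIM and 146, 137 and 141 CPM in bFGF, and rose by 1.77 against OIM (SE 0.0683, edgeR adjusted p = 1.25e-12). RFC3, a small subunit of the loader, measured 6.38, 6.15 and 6.90 CPM in control, 7.01, 9.39 and 7.04 CPM in OIM and 22.6, 19.9 and 21.0 CPM in bFGF, and rose by 1.43 (SE 0.107, edgeR adjusted p = 1.01e-11). RFC1, the large subunit, measured 68.1, 67.1 and 67.3 CPM in control, 67.5, 71.9 and 67.2 CPM in OIM and 87.7, 87.1 and 84.6 CPM in bFGF. Its bFGF libraries lay above the rest without overlap, but the log2 fold change was 0.33 (SE 0.0422, edgeR adjusted p = 1.86e-07) and below the fold limit. RFC4 rose by 1.36, RFC5 by 1.07 and RFC2 by 0.93. On the per-length scale RFC2 was the highest of the 5 loader subunits and RFC3 the lowest in every library, and their ratio was 12.4 to 14.1 in control, 10.5 to 12.3 in OIM and 7.27 to 8.58 in bFGF. RFC1, RFC3, RFC4 and RFC5 each overlap a gene on the opposite strand, and how this moved the ratio was not tested.

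Polymerase and primase genes rose in 9 of 9 cases, with a median log2 fold change of 1.54. POLE2, a subunit of the leading-strand polymerase epsilon, had the lowest mean CPM of the members in control and in OIM. It measured 0.954, 2.06 and 1.99 CPM in control, 2.44, 2.95 and 1.51 CPM in OIM and 11.7, 8.61 and 9.73 CPM in bFGF. POLD1, the catalytic subunit of polymerase delta, measured 11.2, 12.3 and 10.8 CPM in control, 11.6, 18.2 and 11.4 CPM in OIM and 51.9, 49.4 and 50.6 CPM in bFGF. POLD2, an accessory subunit of the same enzyme, measured 3.34, 3.94 and 3.53 CPM in control, 2.79, 3.90 and 3.61 CPM in OIM and 6.73, 5.69 and 6.41 CPM in bFGF. The bFGF libraries lay above all others in each of the 3 genes, by a wide margin for POLE2 and POLD1 and a narrower one for POLD2. POLE2 rose by 2.12 against OIM (SE 0.269, edgeR adjusted p = 1.78e-05), POLD1 by 1.87 (SE 0.164, edgeR adjusted p = 7.55e-06) and POLD2 by 0.87 (SE 0.151, edgeR adjusted p = 1.61e-05). Within polymerase delta the catalytic subunit thus had the largest change, and POLD3 rose by 0.88, close to POLD2. The catalytic subunit POLE rose by 1.64. Polymerase alpha and its primase, which lay down the primers, moved by like amounts, with POLA2 at 1.65, POLA1 at 1.54, PRIM1 at 1.50 and PRIM2 at 1.27.

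Genes of lagging-strand processing and of the single-strand binding complex RPA rose in 5 of 6 cases, with a median of 1.50 on the log2 scale. FEN1, the flap endonuclease that trims Okazaki fragments, measured 8.20, 8.13 and 8.14 CPM in control, 8.21, 10.1 and 7.67 CPM in OIM and 31.7, 32.4 and 34.4 CPM in bFGF. DNA2, a nuclease and helicase that cuts long flaps, measured 9.43, 10.1 and 10.1 CPM in control, 10.4, 14.1 and 10.3 CPM in OIM and 42.0, 43.2 and 42.8 CPM in bFGF. RPA3, the small subunit of RPA, measured 16.4, 11.8 and 13.9 CPM in control, 15.2, 12.5 and 11.8 CPM in OIM and 17.9, 17.4 and 16.0 CPM in bFGF. For RPA3 the bFGF libraries lay above the OIM libraries but overlapped control, the only member of the 49 with such an overlap. FEN1 rose by 1.92 against OIM (SE 0.0907, edgeR adjusted p = 1.32e-15) and DNA2 by 1.88 (SE 0.0929, edgeR adjusted p = 3.51e-14), whereas the log2 fold change of RPA3 was 0.38 (SE 0.110, edgeR adjusted p = 0.00482). The other RPA subunits differed from it in size, with RPA2 rising by 1.41 and RPA1 by 0.87. LIG1, the ligase that seals the fragments, rose by 1.58.

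All 4 deoxynucleotide supply genes rose, with a median log2 fold change of 1.37, and RRM1, RRM2 and TYMS were among the members with the highest CPM. TK1, the thymidine kinase of the salvage pathway, measured 15.9, 17.1 and 15.4 CPM in control, 18.0, 22.9 and 16.9 CPM in OIM and 84.5, 84.5 and 83.8 CPM in bFGF, and rose by 2.13 against OIM (SE 0.0834, edgeR adjusted p = 2.06e-13). RRM2, the S phase subunit of ribonucleotide reductase, measured 88.6, 83.7 and 91.2 CPM in control, 91.2, 130 and 84.6 CPM in OIM and 267, 269 and 277 CPM in bFGF, and rose by 1.41 (SE 0.158, edgeR adjusted p = 0.000184). RRM1, the large subunit of that enzyme, measured 84.4, 84.9 and 86.4 CPM in control, 82.1, 96.7 and 83.5 CPM in OIM and 207, 200 and 210 CPM in bFGF, and rose by 1.23 (SE 0.0490, edgeR adjusted p = 6.75e-16). The bFGF libraries of all 3 genes clustered tightly above the others. TYMS, which makes thymidylate from deoxyuridylate, rose by 1.34. Per kilobase of exon, RRM1 exceeded RRM2 in every library, by 1.32 to 1.42 times in control, 1.04 to 1.38 times in OIM and 1.04 to 1.08 times in bFGF, so the OIM and bFGF ranges overlapped.

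Fork protection genes rose in 3 of 3 cases, with a median of 1.66. CLSPN encodes claspin, the adaptor of the replication checkpoint, and measured 11.0, 13.7 and 12.6 CPM in control, 12.8, 18.9 and 14.9 CPM in OIM and 53.5, 52.3 and 49.3 CPM in bFGF. WDHD1, which tethers polymerase alpha to the helicase, measured 11.7, 10.9 and 12.0 CPM in control, 11.9, 14.0 and 11.4 CPM in OIM and 40.2, 38.5 and 39.4 CPM in bFGF. TIPIN, the partner of the TIMELESS protein, measured 12.9, 10.6 and 10.5 CPM in control, 11.9, 13.3 and 11.0 CPM in OIM and 24.9, 26.5 and 23.2 CPM in bFGF. Control and OIM libraries overlapped in all 3, and the bFGF libraries overlapped neither. CLSPN rose by 1.73 against OIM (SE 0.120, edgeR adjusted p = 4.73e-08), WDHD1 by 1.66 (SE 0.0788, edgeR adjusted p = 1.34e-15) and TIPIN by 1.04 (SE 0.0921, edgeR adjusted p = 2.55e-10). CLSPN and TIPIN overlap a gene on the opposite strand.

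Chromatin assembly genes and E2F regulators had the highest median of the role groups, 2.00 on the log2 scale, and 5 of 5 rose. UHRF1, which recruits the maintenance DNA methyltransferase to new DNA, measured 18.6, 19.8 and 21.2 CPM in control, 22.9, 32.1 and 21.2 CPM in OIM and 117, 119 and 122 CPM in bFGF. E2F8, a repressor of the E2F family that is itself transcribed late in G1 and in S phase, measured 9.76, 8.69 and 9.22 CPM in control, 9.32, 14.8 and 9.84 CPM in OIM and 50.0, 47.0 and 53.1 CPM in bFGF. CHAF1A, the large subunit of chromatin assembly factor 1, measured 12.8, 13.7 and 13.6 CPM in control, 16.8, 18.9 and 15.7 CPM in OIM and 48.2, 48.5 and 50.1 CPM in bFGF. The bFGF libraries lay above all others in these genes, and control and OIM did not overlap in CHAF1A, overlapped in E2F8 and nearly met in UHRF1. Against OIM, UHRF1 rose by 2.23 (SE 0.146, edgeR adjusted p = 3.74e-06), E2F8 by 2.14 (SE 0.152, edgeR adjusted p = 4.99e-07) and CHAF1A by 1.51 (SE 0.0700, edgeR adjusted p = 8.72e-16). CHAF1B, the partner of CHAF1A, rose by 2.00 and the activator E2F1 by 1.95. UHRF1 overlaps ARRDC5 on the opposite strand.

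**Figure D4:**
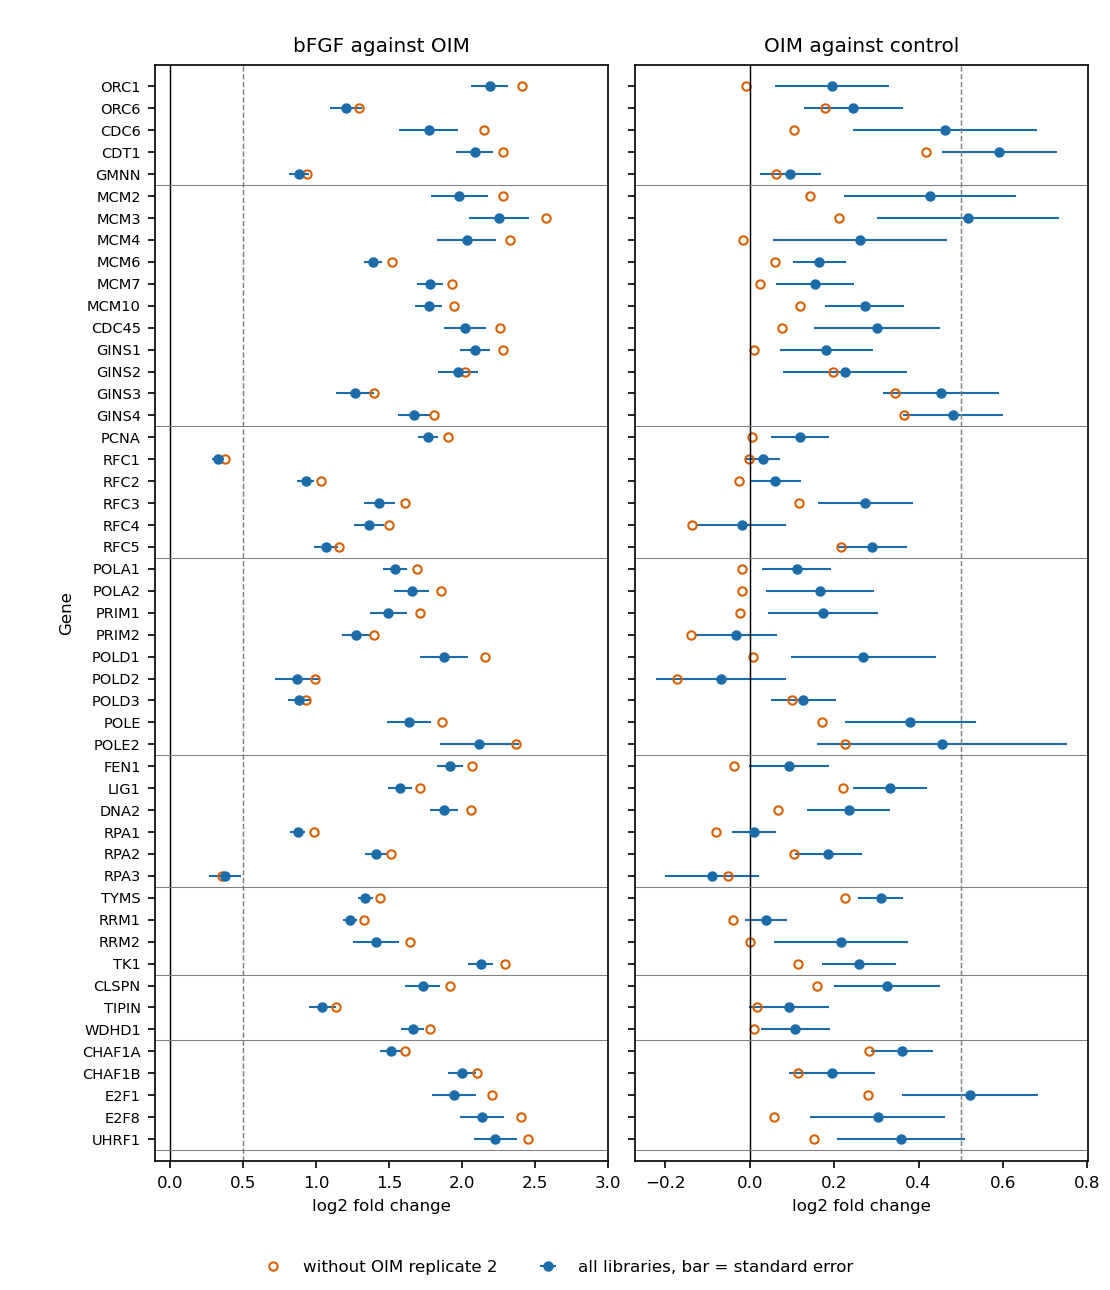
Log2 fold change with its standard error for each of the 49 genes, for bFGF against OIM (left) and OIM against control (right). The dashed line is the fold limit of 0.5, and open circles give the fit without OIM replicate 2, which lie right of the filled ones on the left and left of them on the right in every gene but RPA3.

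In OIM against control 1 member was called, more passed the adjusted p alone, and the median fold change was smaller without OIM replicate 2. CDT1, the MCM loader, was the only one of the 49 members called higher, while 1.49% of all genes were, with a log2 fold change of 0.59 (SE 0.137, edgeR adjusted p = 0.00493). None was called lower, and none was lower at an unadjusted p under 0.05 by edgeR or by DESeq2. At the adjusted p alone 7 members were higher by edgeR, namely CDT1, GINS3, GINS4, RFC5, LIG1, TYMS and CHAF1A, while 7.62% of all genes were, and by DESeq2 11 members and 9.48% of the genes with an adjusted p were. TYMS had the smallest adjusted p of these, at 52.3 to 55.9 CPM in control and 63.0 to 74.5 CPM in OIM, a log2 fold change of 0.31 (SE 0.0529, edgeR adjusted p = 0.000283). The OIM and control libraries did not overlap, with OIM above, in 16 members, against 14.5% of all genes. The fold change was positive in 45 members and negative in RFC4, PRIM2, POLD2 and RPA3, with a median of 0.22 on the log2 scale.

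Without OIM replicate 2 the median of OIM against control was 0.07 on the log2 scale, and 35 members were positive and 14 negative. None was called, while of 13858 genes tested 203 were called higher and 148 lower. With all libraries 17 of the 49 were higher at an unadjusted p under 0.05 by edgeR and 22 by DESeq2, while 13.9% and 14.9% of all genes were. Without the library 12 were by edgeR, as were 13.5% of all genes. The adjusted p was passed by 7 members and by 8.16% of all genes, and of the 7 members 4 (CDT1, CHAF1A, GINS4 and TYMS) had also passed it with all libraries. CDT1 then had a log2 fold change of 0.42. DESeq2 on all libraries called 2 members higher, CDT1 and E2F1, and 227 genes higher among all genes tested. The small rise of CDT1 past the fold limit therefore rested on OIM replicate 2.

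Against plain DMEM the bFGF group stood higher still. It shares its bFGF libraries with the comparison above, so its values are given beside it and are not a second line of evidence. Of the 49 members 47 rose against control, while 18.9% of all genes were called higher, and the median was 1.89 on the log2 scale, or 3.70-fold. Every bFGF library lay above every control library in 48 members, against 36.4% of all genes, with RPA3 the exception. MCM3 again had the largest change, 2.77 (SE 0.212, edgeR adjusted p = 1.99e-05), followed by CDT1 at 2.68 and UHRF1 at 2.59. RFC1 and RPA3 had log2 fold changes of 0.36 and 0.29 and again missed the fold limit.

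Related genes outside the list moved in the same direction less uniformly. Of 82 genes tested in 5 further lists of the same pathways, 49 were called higher and 6 lower in bFGF against OIM. Their median log2 fold change was 0.68, and 17.7% and 18.5% of all genes were called higher and lower. At the adjusted p alone 66 of the 82 were higher and 10 lower, as were 4634 and 4593 of all 13662 genes. In the counts for these lists, rose and fell mean called. Among other origin and firing genes 9 of 11 rose and none fell, led by MTBP at 2.14 and the helicase RECQL4 at 1.91, and only ORC4 was lower at an unadjusted p under 0.05. Among other fork and polymerase genes 8 of 14 rose, led by DSCC1 at 2.79, a subunit of an alternative clamp loader, and the exonuclease EXO1 at 2.30. POLD4, the smallest subunit of polymerase delta, fell, with a log2 fold change of -0.79.

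Nucleotide synthesis outside the list was more mixed, with 14 of 26 genes called higher and 2 lower. DCTPP1, a pyrophosphatase that cleans the deoxynucleotide pool, rose by 2.30 and SHMT1, the cytosolic serine hydroxymethyltransferase, by 1.76. The mitochondrial SHMT2 had a log2 fold change of -0.73 and IMPDH1 of the guanine nucleotide branch one of -0.55, both called lower. Among other chromatin genes 4 of 8 rose and none was called lower or was lower at an unadjusted p under 0.05, with the remodeller HELLS at 2.08 and the histone chaperone ASF1B at 2.06.

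Regulators of the G1/S transition included genes that fell. Of 23 tested, 14 rose and 3 fell, the rises led by MYBL2 and cyclin A (CCNA2), both at 1.94. The inhibitor CDKN1B (p27), which restrains cyclin-dependent kinases in resting cells, measured 61.6, 54.4 and 57.7 CPM in control, 60.8, 53.5 and 63.3 CPM in OIM and 28.2, 26.1 and 26.2 CPM in bFGF. Its bFGF libraries lay below the other 6 without overlap, and its log2 fold change was -1.14 (SE 0.0631, edgeR adjusted p = 6.35e-14). Cyclin CCND3 also fell, at -1.02, and so did the inhibitor CDKN1A (p21), named after its values were seen, at -0.74. The pocket proteins, also named after their values were seen, differed from one another. RBL1 rose by 1.44, RB1 had a log2 fold change of 0.00 (edgeR adjusted p = 0.962), and RBL2 had one of -0.37, below the fold limit. In OIM against control 3 of these 82 genes were called higher, SHMT1, E2F5 and CCND1.

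**Figure D5:**
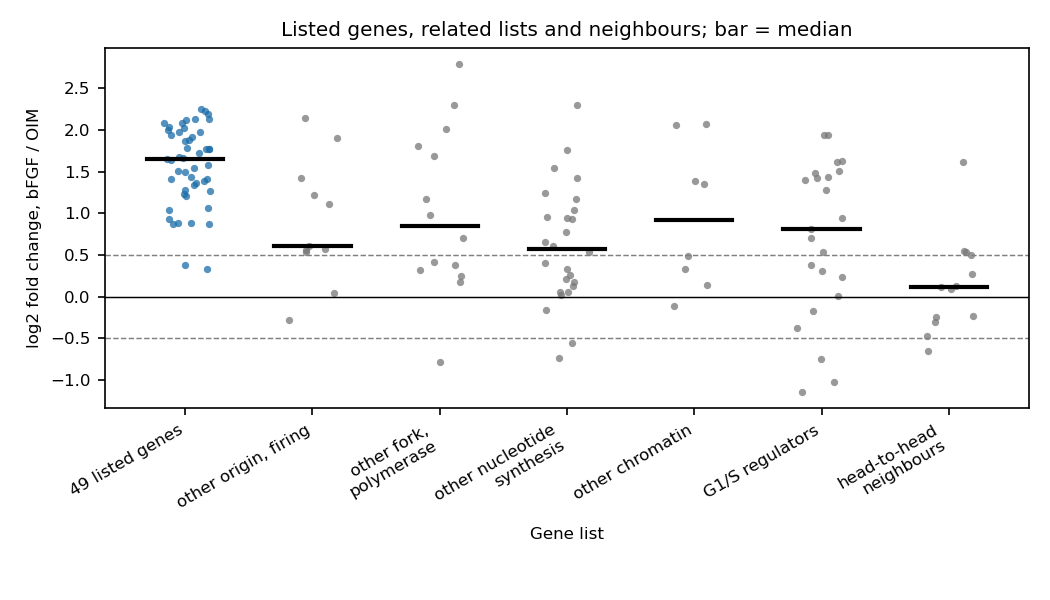
Log2 fold change of bFGF against OIM for the 49 listed genes, 5 related lists and the genes that start head to head with a listed gene. Bars are medians, 1.65 for the listed genes and 0.11 for the neighbours, and dashed lines mark the fold limit in each direction.

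Many of these genes start close to a neighbour on the other strand, which gives a measurement beside each from the same stretch of DNA. A neighbour of any gene type, on the opposite strand with its start within 1000 bases, was annotated for 14 members, and 13 of the neighbours were tested. The median log2 fold change of bFGF against OIM was 0.11 for the neighbours and 1.66 for the members beside them. Of the neighbours, 3 were called higher, namely PRKDC beside MCM4 at 0.54, TMEM258 beside FEN1 at 0.54, and LOC100620470 beside PRIM1 at 1.62 (SE 0.574), the last a rare RNA at 0.0922 to 0.557 CPM across the libraries. C6H19orf68 beside LIG1 was called lower at -0.65. Over all genes tested 17.7% were called higher and 18.5% lower. AP4M1 beside MCM7 and AGO4 beside CLSPN also overlap the member in the annotation. TK1 and its neighbour AFMID start 168 bases apart and had log2 fold changes of 2.13 and 0.27, and WDHD1 and SOCS4 start 43 bases apart and had 1.66 and 0.10.

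Cell type markers moved with the same contrast. Summed over 10 of 10 markers of valve interstitial cells the level was 72549 to 77164 CPM in control, 68999 to 75024 CPM in OIM and 38557 to 39072 CPM in bFGF, with ACTA2, COL1A1, COL1A2, COL3A1, DCN and TAGLN called lower and VIM and POSTN higher in bFGF against OIM. The 8 endothelial markers summed to 73.2 to 75.5 CPM in control, 87.5 to 89.3 CPM in OIM and 170 to 179 CPM in bFGF, most of it ERG. In bFGF against OIM 6 of the 8 were called higher, KDR at 2.73, EMCN at 1.55, TEK and ERG at 1.04, PECAM1 at 0.81 and CDH5 at 0.51 on the log2 scale, and VWF and TIE1 were not called. The 8 immune markers summed to 14.2 to 17.4, 15.4 to 17.0 and 9.15 to 9.45 CPM in the same order, with CD3E at 0, and CD14, which made up most of the sum, and LCP1 were called lower in bFGF against OIM, at -0.81 and -1.10. The part of cell composition in the change of the replication genes was not tested.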

How the data were processed

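Total RNA of PVICs was sequenced in 9 libraries. The authors deposited 1 table of estimated counts, in which the gene rows hold whole numbers and 44.6% of the non-coding values do not, and 19 empty columns without a name were not used. Per the labels, stranded ribosome-depleted libraries were trimmed with Trimmomatic and aligned with HISAT2 to Sscrofa11.1, with StringTie named as well, whereas the study's methods name another kit, aligner and culture time. The counting program and its use of strand are not given in the sources used here. If strand was ignored, reads of overlapping genes on opposite strands are mixed. Of the gene rows, 25 carry a date in place of a symbol.

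Genes were filtered with filterByExpr, scaled by TMM and fitted over the 3 groups with edgeR 4.0.16 (robust quasi-likelihood, 6 residual degrees of freedom, R 4.3.3), without a replicate block. The common biological coefficient of variation was 0.0602. On simulated counts for bFGF against OIM (13662 genes, 200 changed), 96.5% of changed genes were recovered with 3 false calls. The simulation gave all genes a common spread, gave control and OIM the same means and made every change larger than the fold limit. Recovery with smaller changes, more changed genes or unequal spread was not tested. DESeq2 1.42.0, other scalings and filters, fold limits, a replicate block and leaving out each library were alternatives. Same-numbered libraries did not deviate together. Named members were the 2 with the largest and the 1 with the smallest change of bFGF against OIM in each role, any called in OIM against control, and up to 2 called genes per direction in related lists. Members and lists were chosen with earlier results of these data known. Promoters and positions came from the RefSeq annotation of Sscrofa11.1. Protein sequences were not analysed here.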

Additional observations from a re-analysis of the deposited data

How the results depend on the processing

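In bFGF against OIM, 47 members were called under DESeq2, median-of-ratios scaling, both filter settings, the fit to the compared groups alone and each left-out library, and the median over the members ran from 1.52 to 1.81 on the log2 scale when single libraries were left out. Scaling by library totals called 49 of 49 and gave medians of 1.87 against OIM and 2.11 against control. Over all genes this scaling turned 2584 higher and 2735 lower calls of bFGF against control into 3934 and 1843. Leaving out single libraries moved the median against control between 1.85 and 1.91. With a fold limit of 1 on the log2 scale GMNN, RFC2, POLD2, POLD3 and RPA1 lost their call against OIM, at 0.88, 0.93, 0.87, 0.88 and 0.87. In OIM against control the count of members called higher was 1 with all libraries, 2 with DESeq2, 7 without a fold limit and 0 with a fold limit of 1, and it ran from 0 to 4 when single libraries were left out, with 0 without OIM replicate 2 and 4 without OIM replicate 3. Without control replicate 3 and without OIM replicate 1 it was 3. Over all genes 204 were called higher with all libraries, 227 with DESeq2 and 203 without OIM replicate 2. The replicate block gave 2, CDT1 and E2F1, and moved no other count of member calls by over 1.5 times. Deviations of same-numbered libraries correlated at -0.03 to 0.00, so no shared deviation was seen and the block is not read as a pairing. Whether these libraries shared an animal or a culture is not known.

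Small fold changes of OIM against control turned sign when single libraries were left out, and without OIM replicate 2 the negative ones over all 49 members went from 4 to 14. Ranges were computed for the 24 members named with values in each library. Of these, 6 turned sign and none was called, and their leave-one-out ranges were -0.205 to 0.0361 for RPA3, -0.172 to 0.0578 for POLD2, -0.00939 to 0.330 for ORC1, -0.00103 to 0.0473 for RFC1, -0.0382 to 0.174 for FEN1 and -0.0403 to 0.0810 for RRM1, with the positive values of RPA3 without control replicate 1, of POLD2 without control replicate 2 or OIM replicate 1, and the negative values of the others without OIM replicate 2. The log2 fold change of CDT1 ran from 0.42 to 0.75. The effect of depth was not tested, and POLE2 rested on 52 reads in its lowest library.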

Other observations

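Circular RNAs, which form when a downstream exon is joined back to an upstream one, are listed in the same table by coordinates. By position, 12 of the 6179 circular RNAs lay inside 10 of the members on the same strand. Together they held 16, 8 and 3 junction reads in the control libraries, 12, 7 and 22 in OIM and 2, 8 and 6 in bFGF, while all circular RNAs held 8340 to 10029, 8051 to 9906 and 6048 to 6394. The most abundant lay in MCM6, the helicase subunit, at chr15:15928996-15941387, with 6, 4 and 3 junction reads in control, 4, 3 and 8 in OIM and 2, 6 and 6 in bFGF. These groups overlapped, whereas the gene count of MCM6 rose by 1.39 on the log2 scale in bFGF against OIM. The reads were few, and a difference in the circular RNA was not tested.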
